A study of Homo sapiens with 24 samples.

Results

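The tubulin and stathmin genes STMN1, TUBA1B, TUBA1C, TUBB, TUBB4B and TUBG1 were followed in LNCaP cells, an established human prostate cancer line that responds to androgen, after transfection with 1 of 3 siRNAs: si-A1, which targets the long non-coding RNA TAPIR-1, si-A2, which targets TAPIR-2, and a control duplex of scrambled sequence, called scramble. TAPIR-1 and TAPIR-2 are lncRNA transcripts of 1 locus on chromosome 2. The members were the probes whose RefSeq accession maps to these 6 genes, out of 38056 genes above background at 24 h and 42434 at 48 h, and the 6 genes were selected with their changes after both siRNAs at both time points already known. Fold changes and adjusted p-values of these 6 genes therefore describe where they stood in the fit and are not independent evidence. The siRNAs were delivered by electroporation into cells kept in RPMI-1640 medium with serum, and total RNA was collected after 24 h or 48 h, with 4 biological replicates in each group, each on its own one-colour Agilent array. The 48 h si-A2 replicate 2 was left out because its array was dim, which leaves 3 arrays in that group. Each target was covered by 1 siRNA, so an effect of losing the lncRNA and an off-target effect of the duplex cannot be told apart. Because the 24 h and 48 h samples were hybridised to separate array designs, levels are compared only within a time point.

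Microtubules are hollow polymers of alpha- and beta-tubulin dimers that form the mitotic spindle, the tracks for vesicle transport and part of the cell's scaffold. TUBA1B and TUBA1C encode alpha-tubulins, TUBB and TUBB4B encode beta-tubulins, and TUBG1 encodes gamma-tubulin, which sits in ring complexes at the centrosome and starts new microtubules. STMN1 encodes stathmin, a small phosphoprotein that binds free tubulin dimers and promotes the shrinking of microtubules, and that is phosphorylated as cells enter mitosis. Cells also control the amount of tubulin mRNA through the level of free tubulin dimers.

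Promoter windows of 4 of the 6 genes are shown because the genes were followed together, and because cell cycle genes are known to carry 3 short motifs near their start: the CCAAT box (CCAAT, bound by NF-Y), the CHR element (TTTGAA or TTTAAA) and the E2F site (TTTGGCGC or TTTCGCGC). The windows hold 250 bases before and 50 after a transcription start in RefSeq on GRCh38.p14, 5′ to 3′ on the strand of the gene, with matches on either strand in capitals. No match overlapped another in these windows. STMN1 (chromosome 1, chr1:25906370-25906669, minus strand) had a CCAAT box at base -75 and an E2F match at base -38 from the start, while the other 2 windows that RefSeq lists for STMN1 held none of the 3 motifs. TUBG1 (chromosome 17, chr17:42609433-42609732, plus strand) had both in a like order, with the CCAAT box on the reverse strand at base -67 and the E2F match at base -31. TUBB4B (chromosome 9, chr9:137241037-137241336, plus strand) had 3 CCAAT boxes and 1 CHR element, and TUBA1B (chromosome 12, chr12:49131346-49131645, minus strand) had none of the 3 motifs.
STMN1: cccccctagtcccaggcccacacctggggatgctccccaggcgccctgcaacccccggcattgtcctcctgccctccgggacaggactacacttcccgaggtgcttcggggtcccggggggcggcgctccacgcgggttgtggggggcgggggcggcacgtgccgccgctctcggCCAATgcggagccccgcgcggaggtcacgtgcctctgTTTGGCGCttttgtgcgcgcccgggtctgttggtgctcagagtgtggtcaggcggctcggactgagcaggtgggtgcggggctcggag
TUBG1: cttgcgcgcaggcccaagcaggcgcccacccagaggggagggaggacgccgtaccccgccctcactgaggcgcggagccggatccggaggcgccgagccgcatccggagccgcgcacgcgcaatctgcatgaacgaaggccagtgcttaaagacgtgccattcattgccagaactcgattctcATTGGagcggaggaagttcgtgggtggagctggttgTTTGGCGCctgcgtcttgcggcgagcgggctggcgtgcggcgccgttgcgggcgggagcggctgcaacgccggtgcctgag
TUBB4B: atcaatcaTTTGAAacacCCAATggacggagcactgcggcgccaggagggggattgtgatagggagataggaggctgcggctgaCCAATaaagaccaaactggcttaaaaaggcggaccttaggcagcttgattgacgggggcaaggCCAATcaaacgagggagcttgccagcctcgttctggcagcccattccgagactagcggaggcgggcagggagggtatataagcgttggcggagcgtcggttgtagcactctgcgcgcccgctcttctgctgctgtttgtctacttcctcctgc
TUBA1B: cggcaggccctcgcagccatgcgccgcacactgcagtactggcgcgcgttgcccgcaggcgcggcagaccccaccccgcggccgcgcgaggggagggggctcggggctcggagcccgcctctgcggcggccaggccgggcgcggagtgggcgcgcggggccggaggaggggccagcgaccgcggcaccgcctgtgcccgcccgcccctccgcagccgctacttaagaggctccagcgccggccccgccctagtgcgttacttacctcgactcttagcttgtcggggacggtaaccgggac

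Over the 11 windows that RefSeq lists for the 6 genes, 7 held a CCAAT box, 4 a CHR element and 2 an E2F match. The TUBA1C windows chr12:49227676-49227975 and chr12:49227769-49228068 overlap and hold the same CCAAT box, which is counted in both. The windows are therefore not independent. Among 35116 windows of the same length over all genes, 34.6% held a CCAAT box, 24% a CHR element, 1.15% an E2F match, and 9.27% both a CCAAT box and a CHR element. These matches are descriptions of letters in a window and not measurements of binding.

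Across the 24 arrays the median processed intensity ran from 24.4 to 57.2 at 24 h and from 20.4 to 32.2 at 48 h, with 13.9 on the array left out. On that array TUBA1B read 7.64 on the normalized log2 scale, against 12.03 to 12.38 on the other 48 h si-A2 arrays when all 12 arrays were normalized together. All 8 markers of LNCaP cells were above background at both time points, at percentiles 83.2 to 98.7 of all genes at 24 h. Markers of other cells stood lower, at percentiles 27.7 to 41.5 for basal epithelium (KRT5 not above background) and 20.0 to 29.6 for fibroblasts, while the leukocyte probes stood at 57.0 to 65.3. A probe for TAPIR-2 read 4.82 to 5.27 after scramble, 4.18 to 4.95 after si-A1 and 3.12 to 4.69 after si-A2 at 24 h, where it was well above background on 2 of 4 si-A2 arrays, with a log2 fold change for si-A2 of -0.98 (adjusted p = 0.239). At 48 h the same probe read 4.02 to 5.42 after scramble and 3.83 to 5.63 after si-A2 (log2 fold change 0.24, adjusted p = 0.718), so the groups overlapped. TAPIR-1 had no probe that could be matched. In bulk RNA, fewer cells of a kind and less RNA per cell cannot be told apart.

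Read from its brightest probe, STMN1 had the largest 48 h change of the 6 genes after either siRNA, while its dimmer probes lay between -0.28 and 0.31 and the mean over its probes gave -0.64 for si-A1 and -0.69 for si-A2. Its brightest probe at 24 h read 9.19, 9.0005, 9.13 and 9.12 after scramble, 8.93, 8.78, 8.90 and 8.63 after si-A1, and 8.14, 8.23, 8.40 and 8.32 after si-A2, in normalized log2 intensity. The 3 groups did not overlap and lay in the order scramble, si-A1, si-A2. At 48 h it read 9.36, 9.35, 8.73 and 9.25 after scramble, 7.06, 7.54, 6.84 and 6.99 after si-A1, and 7.63, 6.68 and 7.01 after si-A2. Every siRNA array at 48 h lay more than 1 log2 unit below every scramble array, and the si-A1 and si-A2 arrays overlapped. The signal of this probe fell 4.19-fold after si-A1 at 48 h (log2 fold change -2.07 [SE 0.17], adjusted p = 0.000145 by limma with Benjamini-Hochberg adjustment over all genes) and 3.96-fold after si-A2 (-1.99 [SE 0.18], adjusted p = 0.00499). At 24 h it fell 1.79-fold after si-A2 (-0.84 [SE 0.13], adjusted p = 0.0056), while the si-A1 value was -0.30 (SE 0.13, adjusted p = 0.374). With the mean over all STMN1 probes the 24 h si-A2 value was -0.0054 (adjusted p = 0.996) and the call was lost. That mean takes in a probe well above background on no array, and dimmer probes on which scramble replicate 3 read low. It therefore does not show that STMN1 was unchanged. The si-A1 call at 48 h held with each of the 11 arrays left out (adjusted p up to 0.00106). The si-A2 call at 48 h stood close to the threshold of 0.01: with any 1 of the 11 arrays left out its adjusted p lay between 0.0117 and 0.0248 at log2 fold changes of -2.13 to -1.85, and with the replicate number as a block it was 0.0218. The 24 h call was lost with 9 of 12 arrays left out in turn, at adjusted p-values up to 0.0272 and log2 fold changes of -0.88 to -0.79, and the replicate block gave 0.0214.

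**Figure D1:**
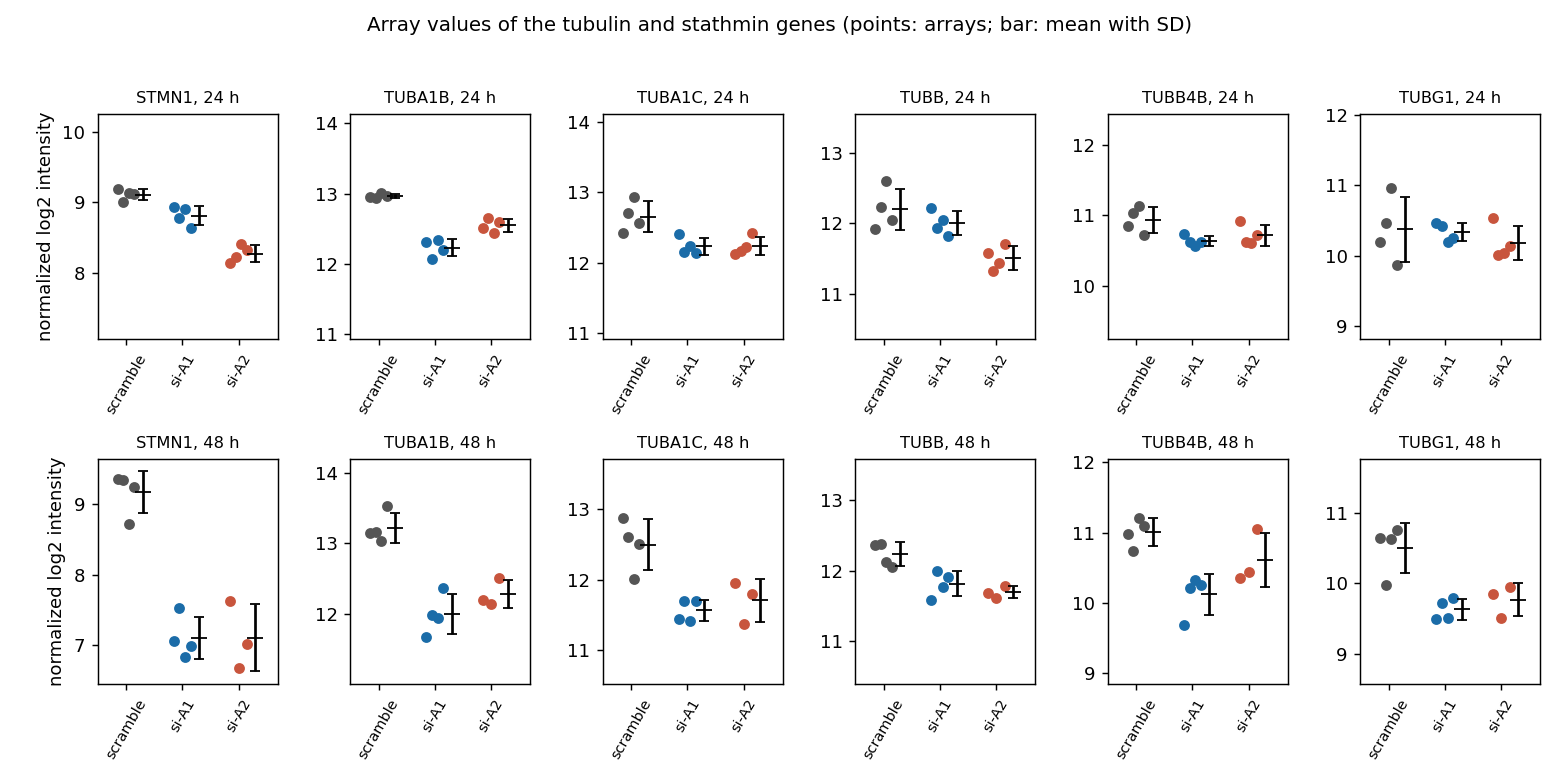
Normalized log2 intensity (vertical axis) of the brightest probe of each of the 6 genes after scramble, si-A1 and si-A2 (horizontal axis), at 24 h in the upper row and 48 h in the lower row. Points are arrays, 4 a group and 3 for si-A2 at 48 h, and bars are the mean with SD; each panel has its own axis, and the STMN1 arrays of both siRNAs at 48 h reach at most 7.63 while the scramble arrays start at 8.73.

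The alpha-tubulin TUBA1B was called lower after si-A1 at both time points. At 24 h it read 12.95, 12.94, 13.01 and 12.97 after scramble, 12.31, 12.07, 12.35 and 12.20 after si-A1, and 12.51, 12.66, 12.44 and 12.59 after si-A2. The scramble arrays lay close together, and the 3 groups did not overlap. TUBA1B fell 1.66-fold after si-A1 (log2 fold change -0.73 [SE 0.12], adjusted p = 0.00907), and its si-A2 value was -0.42 (SE 0.12, adjusted p = 0.166). The 24 h call was lost whichever of the 12 arrays was left out (adjusted p 0.014 to 0.0476, log2 fold change -0.77 to -0.67) and with the replicate block (adjusted p = 0.0354). At 48 h TUBA1B read 13.15, 13.16, 13.03 and 13.53 after scramble, 11.67, 11.99, 11.94 and 12.37 after si-A1, and 12.20, 12.14 and 12.50 after si-A2. Both siRNA groups lay below every scramble array and overlapped each other. TUBA1B fell 2.34-fold after si-A1 at 48 h (-1.22 [SE 0.16], adjusted p = 0.00175), and this call held with each of the 11 arrays left out (adjusted p up to 0.00865). After si-A2 the value was -0.97 (SE 0.17, adjusted p = 0.0289), a difference that did not pass the threshold.

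The other alpha-tubulin, TUBA1C, passed the threshold in none of the comparisons. At 48 h it read 12.87, 12.60, 12.01 and 12.51 after scramble, 11.44, 11.69, 11.41 and 11.70 after si-A1, and 11.96, 11.36 and 11.80 after si-A2. No siRNA array reached the lowest scramble array. The si-A1 log2 fold change was -0.94 (SE 0.17) with an adjusted p of 0.0100005, just above 0.01, and the si-A2 value was -0.74 (SE 0.19, adjusted p = 0.0977). In the table of all probes the same si-A1 value passed (adjusted p = 0.00983), so its call depends on the table. At 24 h both siRNAs gave -0.42 (SE 0.14, adjusted p = 0.246 for si-A1 and 0.273 for si-A2), with scramble arrays of 12.42 to 12.93 and siRNA arrays of 12.12 to 12.41. A second TUBA1C probe had smaller 48 h values, -0.45 after si-A1 (adjusted p = 0.132 over all probes) and -0.57 after si-A2 (0.18).

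Of the beta-tubulins, TUBB4B had its larger change after si-A1. At 48 h it read 10.98, 10.74, 11.21 and 11.10 after scramble, 9.69, 10.21, 10.33 and 10.26 after si-A1, and 10.35, 10.44 and 11.04 after si-A2. The si-A1 arrays lay below every scramble array, and si-A2 replicate 4 lay among the scramble arrays. TUBB4B fell 1.85-fold after si-A1 at 48 h (log2 fold change -0.88 [SE 0.16], adjusted p = 0.00891), and its si-A2 value was -0.45 (SE 0.17, adjusted p = 0.256). The si-A1 call was lost with the replicate block (adjusted p = 0.0236) and with 9 of the 11 arrays left out in turn (adjusted p up to 0.0296, log2 fold change -0.98 to -0.78). At 24 h the TUBB4B values were -0.30 after si-A1 and -0.22 after si-A2 (SE 0.14 for both, adjusted p = 0.419 and 0.63), and the groups overlapped.

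TUBB, a widely expressed beta-tubulin, gave different answers from its 3 probes. Its brightest probe, A_23_P81912, passed no threshold: at 48 h it read 12.37, 12.38, 12.12 and 12.05 after scramble, 11.58, 11.995, 11.78 and 11.91 after si-A1, and 11.68, 11.62 and 11.79 after si-A2. All siRNA arrays lay below the scramble arrays, by log2 fold changes of -0.42 for si-A1 (SE 0.12, adjusted p = 0.0605) and -0.52 for si-A2 (SE 0.13, adjusted p = 0.1). The 24 h values of this probe were -0.19 after si-A1 (SE 0.17, adjusted p = 0.677) and -0.69 after si-A2 (SE 0.17, adjusted p = 0.105).

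The dimmer TUBB probe A_23_P387057 read 10.32, 10.96, 10.88 and 10.56 after scramble, 10.55, 10.38, 10.38 and 10.19 after si-A1, and 9.47, 9.28, 8.93 and 9.35 after si-A2 at 24 h. At 48 h it read 10.33, 10.43, 10.07 and 10.18 after scramble, 9.72, 9.79, 9.73 and 9.87 after si-A1, and 9.20, 8.87 and 8.93 after si-A2. At both time points every si-A2 array lay below every scramble and every si-A1 array. In the table of all probes this probe fell after si-A2 by 1.42 on the log2 scale at 24 h (SE 0.18, adjusted p = 0.00168) and by 1.23 at 48 h (SE 0.11, adjusted p = 0.00451). The third probe, A_33_P3312258, fell after si-A2 by 1.11 at 24 h (SE 0.15, adjusted p = 0.0025) and by 1.08 at 48 h (SE 0.11, adjusted p = 0.00591). After si-A1 the log2 fold changes of the dimmer probes were -0.31 and -0.03 at 24 h and -0.47 and -0.47 at 48 h, none of which passed. Between the siRNAs, A_33_P3312258 was lower after si-A2 than after si-A1 at 24 h (-1.09 [SE 0.15], adjusted p = 0.00735) and A_23_P387057 at 48 h (-0.75 [SE 0.11], adjusted p = 0.00859), while the other probe of each time point missed the threshold (A_23_P387057 at 24 h -1.12, adjusted p = 0.0151, and A_33_P3312258 at 48 h -0.61, adjusted p = 0.024). With any 1 array left out at 24 h the si-A2 call of A_23_P387057 held (adjusted p up to 0.00867) and that of A_33_P3312258 was lost with 2 of 12 arrays (up to 0.014); both 48 h si-A2 calls were lost with each array left out. With the replicate block A_23_P387057 kept its 24 h si-A2 call (adjusted p = 0.00933), while A_33_P3312258 at 24 h (0.0127) and both probes at 48 h (0.0228 and 0.0253) lost it. The calls between the siRNAs were lost with the block (0.0317 and 0.0329), and held with 3 of 12 and 0 of 11 single arrays left out. With the mean over its 3 probes TUBB was called after si-A2 at 24 h (-1.07, adjusted p = 0.00453) and at 48 h (-0.94, adjusted p = 0.00749). The difference between probes of a gene was not itself tested, and what each probe binds cannot be checked here. Tubulin genes share long stretches of coding sequence with each other and with pseudogenes, so a probe may also read RNA of a near copy.

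TUBG1, the gamma-tubulin, was within the scramble spread at 24 h. It then read 10.20, 10.47, 10.97 and 9.87 after scramble, 10.47, 10.42, 10.20 and 10.25 after si-A1, and 10.53, 10.01, 10.04 and 10.14 after si-A2, with log2 fold changes of -0.04 and -0.20 (SE 0.22 for both). At 48 h it read 10.64, 9.97, 10.63 and 10.77 after scramble, 9.50, 9.72, 9.51 and 9.79 after si-A1, and 9.85, 9.50 and 9.95 after si-A2. The siRNA arrays lay below all scramble arrays, although scramble replicate 2 at 9.97 was next to si-A2 replicate 4 at 9.95. The log2 fold changes were -0.87 after si-A1 (SE 0.18, adjusted p = 0.0174) and -0.75 after si-A2 (SE 0.20, adjusted p = 0.113), and neither passed the threshold. A dimmer TUBG1 probe, A_33_P3363898, fell after si-A1 at 48 h by 1.04 (SE 0.19, adjusted p = 0.00913 over all probes) and had a si-A2 value of -0.82 (SE 0.21, adjusted p = 0.0926). That call held with 1 of 11 arrays left out and was lost with the replicate block (adjusted p = 0.0195).

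**Figure D2:**
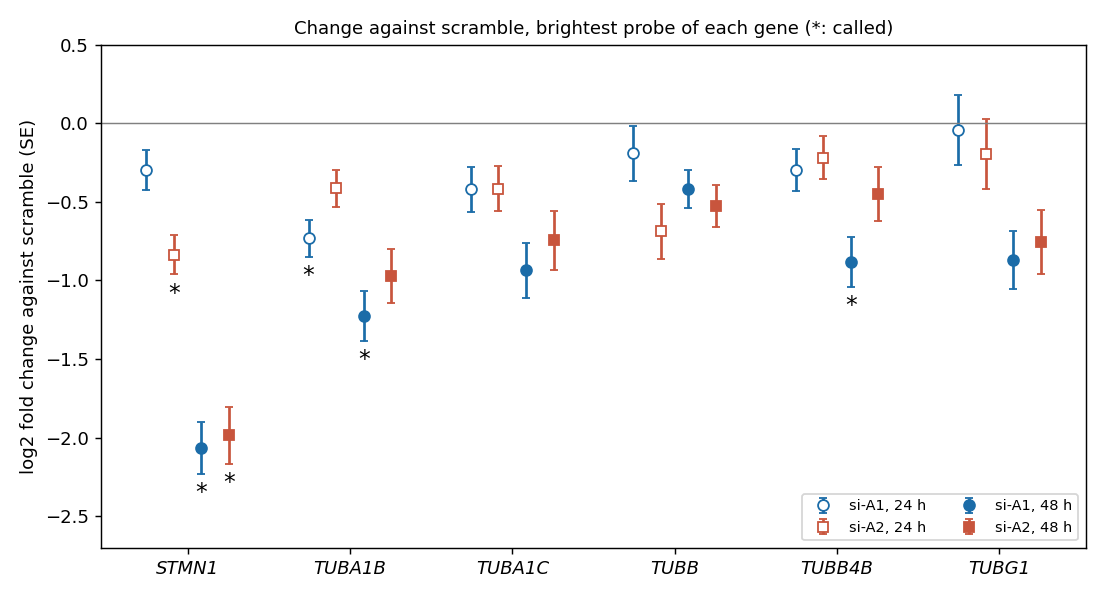
Log2 fold change against scramble (vertical axis) for the brightest probe of each gene (horizontal axis) after si-A1 (circles) and si-A2 (squares), at 24 h (open) and 48 h (filled). Bars are the standard error of the limma fit and an asterisk marks a call (adjusted p under 0.01, log2 fold change of 0.5 or more in size); all 24 values lie below 0, from -2.07 for STMN1 after si-A1 at 48 h to -0.04 for TUBG1 after si-A1 at 24 h.

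By the threshold used, an adjusted p under 0.01 together with a log2 fold change of 0.5 or more in size, 1 of the 6 genes was called lower after si-A1 at 24 h (TUBA1B), where 0.896% of 38056 genes were called lower and 0.0526% higher. After si-A2 at 24 h 1 gene was called lower (STMN1), with 0.775% of all genes called lower and 0.0709% higher. At 48 h 3 genes were called lower after si-A1 (STMN1, TUBA1B and TUBB4B), with 3.03% of all genes lower and 1.33% higher. After si-A2 at 48 h 1 gene was called lower (STMN1), with 0.207% of all genes lower and 0.033% higher. No member was called higher in these comparisons. The genes were selected on these contrasts, so nothing is read from their counts against the share over all genes. The median log2 fold change of the 6 genes at 24 h was -0.30 for si-A1 and -0.42 for si-A2, and -0.91 and -0.75 at 48 h, while that of all genes tested lay between 0.01 and 0.04. With the replicate number as a block the counts were 0 and 0 at 24 h and 2 and 0 at 48 h. Over all genes the block left 243 calls after si-A1 and 221 after si-A2 at 24 h, and 0 after si-A2 at 48 h. In the table of all probes, the calls named above for single probes stand beside shares called lower of 0.961% after si-A1 and 0.793% after si-A2 at 24 h, 3.24% and 0.203% at 48 h, and, for si-A2 against si-A1, 0.0965% at 24 h and 0.289% at 48 h.

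Split by slide, the differences from scramble come from the same arrays on which the genes were selected. They are a description and not a replication. On the slide with replicates 1 and 2 the STMN1 difference from scramble was -2.06 for si-A1 and, with 1 si-A2 array there, -1.73 for si-A2, and on the slide with replicates 3 and 4 it was -2.08 and -2.14. The within-slide differences of the 5 tubulin genes at 48 h lay between -1.32 (TUBA1B after si-A1) and -0.25 (TUBB after si-A1), all below 0. At 24 h the exceptions were TUBG1, which was 0.11 higher after si-A1 on the first slide, and TUBB, which did not differ there beyond 0.001.

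The direct comparison of si-A2 with si-A1 called 0 of the 6 genes at 24 h, where 0.242% of all genes were called, and 0 at 48 h, where 0.94% were called. No share of all genes at an unadjusted p below 0.05 is given here, so nothing is read from counts at that cutoff. At that cutoff 3 of the 6 genes passed at 24 h and 1 at 48 h. STMN1 at 24 h was the largest of these differences, lower after si-A2 by 0.54 on the log2 scale (SE 0.13, adjusted p = 0.0876) with groups that did not overlap. TUBA1B went the other way at 24 h, with a si-A2 minus si-A1 value of 0.32 (SE 0.12, adjusted p = 0.35). At 48 h STMN1 differed between the siRNAs by 0.08 (SE 0.18, adjusted p = 0.89), and the largest difference was that of TUBB4B at 0.43 (SE 0.17, adjusted p = 0.251). A p that misses the threshold does not show that the siRNAs act alike.

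Whether an siRNA effect differed between the time points was tested with an interaction term over 23 arrays normalized together and the probes on both array versions. The effect of si-A1 on STMN1 changed from 24 h to 48 h by -1.75 on the log2 scale (SE 0.20, adjusted p = 0.00122), the 1 call among the 6 genes, where 0.128% of all genes were called. This call held with any 1 of the 23 arrays left out, at values of -1.83 to -1.63 and adjusted p-values up to 0.00615, and with the replicate block (adjusted p = 0.00254). It was lost when all STMN1 probes were averaged (-0.96, adjusted p = 0.205). For si-A2 the STMN1 change was -1.14 (SE 0.21, adjusted p = 0.0507). Here 0 of 6 genes were called, where 0.0269% of all genes were. At an unadjusted p below 0.05, 2 of the 6 passed, a count given without the share of all genes at that cutoff. The si-A1 changes of the tubulins ranged from -0.16 for TUBB to -0.78 for TUBG1 and none passed (adjusted p 0.275 to 0.804). Since each time point had an array design of its own, time and design cannot be told apart in this test.

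STMN1 also differed by probe. The probe that fell is annotated to 1 RefSeq transcript of the gene, and the dimmer probes to another. Of the dimmer probes, A_24_P342511 read 7.93, 7.50, 7.78 and 7.71 after scramble at 48 h, 7.98, 7.71, 7.38 and 7.23 after si-A1, and 7.92, 7.34 and 6.91 after si-A2. These groups overlapped, and the log2 fold changes were -0.16 after si-A1 (SE 0.19, adjusted p = 0.68 over all probes) and -0.28 after si-A2 (SE 0.21, adjusted p = 0.568). Another dimmer probe, A_19_P00320972, gave 0.31 (SE 0.13, adjusted p = 0.162) and 0.19 (SE 0.14, adjusted p = 0.56) at 48 h. At 24 h A_24_P342511 had scramble arrays of 3.24 to 6.47, the lowest of them (replicate 3) not well above background, and values of 1.02 after si-A1 and 0.72 after si-A2 (SE 0.61, adjusted p = 0.52 and 0.719). A_19_P00320974, on the 24 h version only, gave 0.63 and 0.06, with scramble replicate 3 at 4.89 against 6.47 to 7.18 on the other scramble arrays. On A_19_P00320972 the same 24 h array read 5.12 against 5.74 to 5.81. A_19_P00316238 reached the well-above-background level on none of its arrays but is part of the 24 h mean over probes. The STMN1 calls given above are those of the brightest probe. Averaging the probes gave -0.64 after si-A1 at 48 h, which passed, and -0.69 after si-A2 (adjusted p = 0.0195), which did not.

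**Figure D3:**
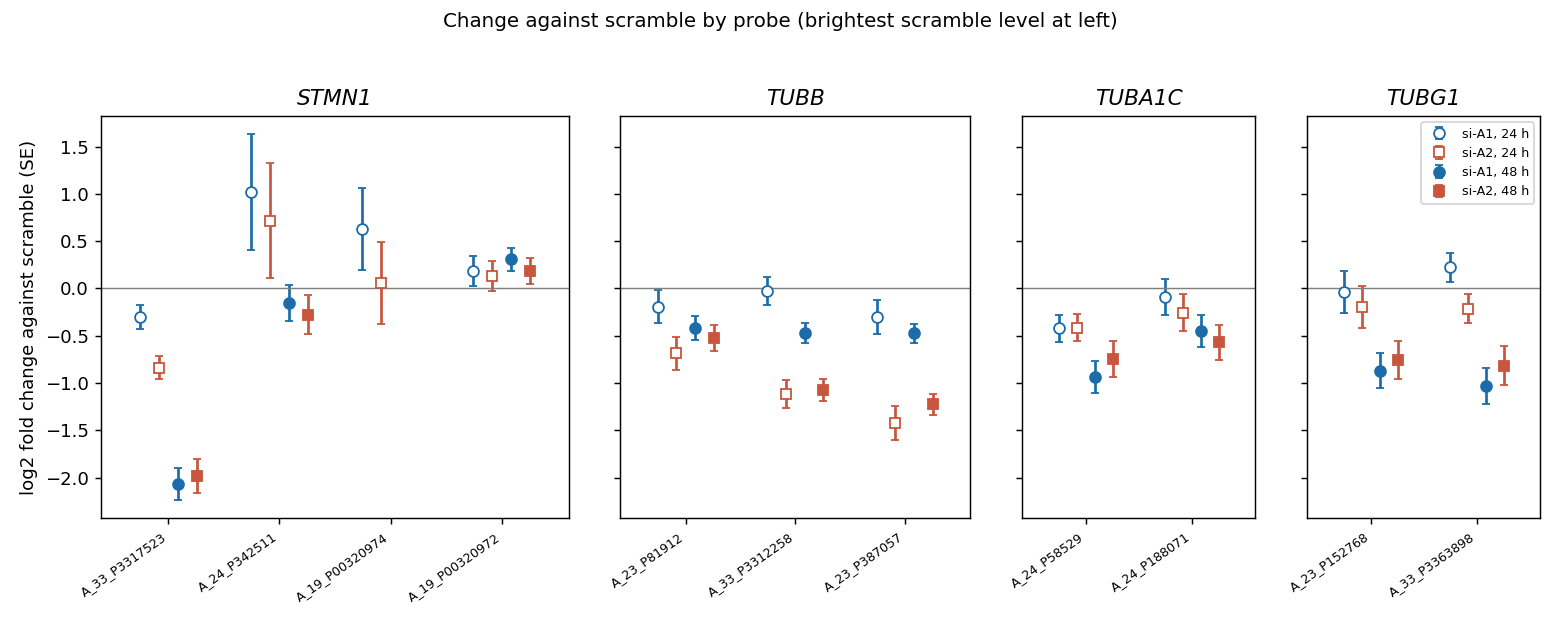
Log2 fold change against scramble (vertical axis) for each probe (horizontal axis, brightest after scramble at the left) of the 4 genes with several probes, after si-A1 (circles) and si-A2 (squares) at 24 h (open) and 48 h (filled). Bars are the standard error of the limma fit over all probes, and an STMN1 probe not well above background on any array is left out; the brightest STMN1 probe lies near -2 at 48 h while its dimmer probes lie between -0.28 and 0.31, and the dimmer TUBB probes lie between -1.42 and -1.08 after si-A2.

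The other tubulin and stathmin genes of the family did not share 1 direction. Of 21 such genes, 18 were above background at 24 h and 17 at 48 h, and 2 had no probe (TUBA3E and TUBA4B). TUBB2B had a probe but was not above background. At 24 h limma called 0 of 18 after either siRNA. Over all genes, 0.896% were called lower and 0.0526% higher after si-A1, and 0.775% and 0.0709% after si-A2. The medians of the 18 were 0.14 after si-A1 and -0.02 after si-A2, and 7 and 2 of them had an unadjusted p below 0.05. At 48 h after si-A1 1 was called lower and 1 higher out of 17, where 3.03% of all genes were called lower and 1.33% higher, with 7 values below 0 and 10 above and a median of 0.08. After si-A2 limma called 0 of 17, where 0.207% of all genes were called lower and 0.033% higher, with a median of 0.06. At an unadjusted p below 0.05, 8 of the 17 passed after si-A2 at 48 h. After si-A1 at 48 h TUBA1A, TUBA3D, TUBB2A, TUBB3, TUBB4A, TUBB8, TUBG2, TUBD1, TUBE1 and STMN4 passed that cutoff. No share of all genes at that unadjusted cutoff is given here, so nothing is read from the counts at it. The nervous system beta-tubulin TUBB3 was the gene called higher. At 48 h TUBB3 read 6.49, 7.80, 7.15 and 6.43 after scramble, 9.16, 9.09, 8.18 and 8.37 after si-A1, and 8.47, 7.84 and 7.89 after si-A2. Both siRNA groups lay above every scramble array. TUBB3 rose 3.32-fold after si-A1 (log2 fold change 1.73 [SE 0.27], adjusted p = 0.0051), and its si-A2 value was 1.20 (SE 0.30, adjusted p = 0.092). This call was lost with the replicate block (adjusted p = 0.012), without the slide term (0.0155) and with 6 of 11 arrays left out in turn (up to 0.0208, log2 fold change 1.44 to 1.93). At 24 h TUBB3 gave 0.61 after si-A1 (SE 0.14, adjusted p = 0.0541) and 0.18 after si-A2. Of 3 other genes listed as markers of nerve cells, STMN4 gave 0.83 after si-A1 (SE 0.19, adjusted p = 0.0251) and 0.80 after si-A2 at 48 h, while STMN2 stood at percentile 2.72 and ELAVL4 at 15.5 of all genes after scramble.

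Delta-tubulin, TUBD1, a centriole protein, was the family gene called lower. At 48 h it read 5.13, 5.45, 4.76 and 5.46 after scramble and 3.96, 3.73, 4.20 and 3.01 after si-A1, of which 3 of 4 arrays were well above background. TUBD1 fell by 1.48 on the log2 scale (SE 0.26, adjusted p = 0.0083), a call lost with 10 of 11 arrays left out in turn (adjusted p up to 0.029) and with the replicate block (0.0264), and its si-A2 value was -0.66 (SE 0.28, adjusted p = 0.306). With normexp background correction the TUBD1 value was -0.46, under the size needed for a call, so the size of this dim signal depends on the correction. The alpha-tubulin TUBA1A, a close relative of TUBA1B and TUBA1C, gave -0.82 after si-A1 (SE 0.16, adjusted p = 0.0132) and -0.73 after si-A2 (SE 0.18, adjusted p = 0.0854). Epsilon-tubulin TUBE1 gave -0.84 after si-A1 (adjusted p = 0.0114) and 0.01 after si-A2. The second gamma-tubulin gene, TUBG2, gave -0.58 and -0.52, and the beta-tubulin TUBB8 -0.55 and -0.32. On the other side of 0, the beta-tubulin TUBB2A gave 0.49 after si-A1 (SE 0.09, adjusted p = 0.0101), and TUBB4A gave 0.35 and 0.46. The alpha-tubulin TUBA4A gave 0.23 and 0.50, TUBA3C 0.20 and 0.23, TUBA8 0.06 and 0.24, and TUBA3D -0.32 and -0.14, none of which passed. TUBB6 was above background at 24 h only, with -0.53 and -0.58 there. STMN3 gave 0.08 and 0.06 at 48 h, and TUBAL3, TUBB1 and STMN2 were well above background on at most 1 array of a group at that time.

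**Figure D4:**
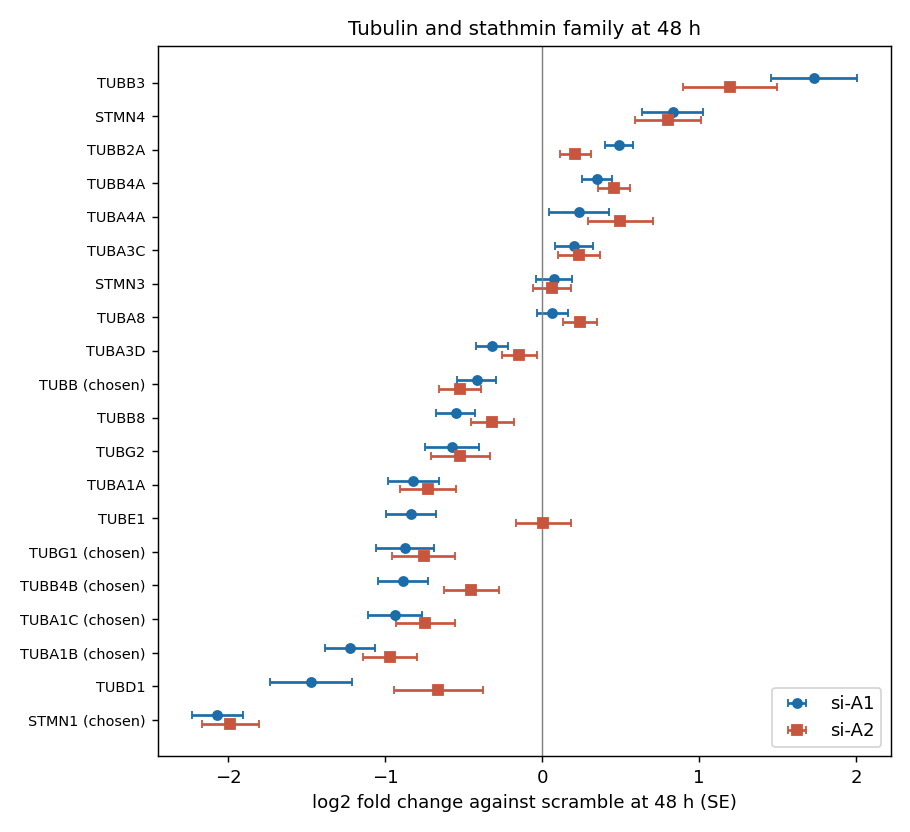
Log2 fold change against scramble at 48 h (horizontal axis) of the tubulin and stathmin genes (vertical axis) after si-A1 (circles) and si-A2 (squares), with the standard error of the limma fit as bars. The 6 selected genes are marked as chosen, and genes not well above background are left out; TUBB3 lies at 1.73 and 1.20 at the top, STMN1 at -2.07 and -1.99 at the bottom.

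Genes that build, fold or modify tubulin were described from 5 lists, in which calls were found after si-A1 at 48 h alone among the siRNA-against-scramble comparisons. In the gamma-tubulin complex list 3 of 9 genes were called lower, where 3.03% of all genes were called lower and 1.33% higher in that comparison. CDK5RAP2, which anchors gamma-tubulin rings at the centrosome, read 8.20 to 8.51 after scramble and 7.09 to 7.18 after si-A1 and fell by 1.20 (SE 0.10, adjusted p = 0.000146). The ring subunit TUBGCP3 fell by 0.98 (SE 0.11, adjusted p = 0.00101) and the ring subunit TUBGCP5 by 0.77 (SE 0.10, adjusted p = 0.00208). The si-A2 values of these genes were -0.63, -0.59 and -0.40, with adjusted p-values of 0.0243 to 0.13. At 48 h the list had a median of -0.34 with si-A1 and -0.30 with si-A2.

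Among the chaperonin and prefoldin genes, which fold new tubulin chains, 1 of 13 was called lower beside the same 3.03% of all genes, CCT6A by 0.75 (SE 0.13, adjusted p = 0.00811), and 12 of 13 values lay below 0 with a median of -0.30. Of the 7 tubulin folding cofactors 0 were called, with a median of -0.11. Of 22 enzymes that modify tubulin, 1 was called lower and 1 higher beside 3.03% and 1.33% of all genes: the tyrosine ligase-like TTLL12 fell by 0.67 (SE 0.10, adjusted p = 0.00418) and the tubulin deacetylase SIRT2 rose by 0.73 (SE 0.12, adjusted p = 0.00622), with a list median of 0.22. The 3 genes that act on tubulin mRNA when free tubulin is high, TTC5, SCAPER and CNOT11, had 0 calls and a median of -0.19. For si-A2 at 48 h these 4 lists had medians of -0.05, 0.07, -0.01 and -0.22, with 0 calls beside 0.207% of all genes called lower and 0.033% higher. The calls of CDK5RAP2, TUBGCP3 and TUBGCP5 held with each of the 11 arrays left out and with the replicate block, but TUBGCP5 lost its call with normexp background correction (-0.48, below the size threshold) and without the slide term (adjusted p = 0.0162). Those of CCT6A, SIRT2 and TTLL12 were lost with the block (adjusted p 0.012 to 0.0217) and held with 1, 2 and 4 of 11 arrays left out, and without the slide term they were lost too (0.0106, 0.187 and 0.0266). These single-gene checks were chosen after the data were seen.

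Over the 4 siRNA-against-scramble changes, the RefSeq genes most like STMN1 out of 19039 were GAS2L3, a linker of microtubules and actin (root mean square log2 difference 0.25), the protease gene CTSV (0.27), APOF (0.27), ALB (0.31) and TIGD3 (0.33). GAS2L3 gave -0.76 and -0.999 at 24 h and -2.04 and -1.93 at 48 h after si-A1 and si-A2. The genes most like the median of the 6 genes were HNRNPH3 (0.06), LAT2 (0.08), RCC1, the exchange factor of Ran (0.09), SLC29A1 (0.09) and CCDC34 (0.09). The changes share their scramble arrays, so the likeness is a description of 4 values and carries no test.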

How the data were processed

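Total RNA from LNCaP cells was labelled with Cy3 and hybridised to 24 Agilent SurePrint G3 Human Gene Expression arrays (a separate version for each time point), 1 sample each. The deposited scanner files, made by the authors with Feature Extraction 11.5.1.1, give a background-corrected processed intensity per spot, and a deposited table holds the authors' quantile-normalized log2 values, used here as an alternative. The submitters' processing notes also name R 3.4.3, limma 3.34.8 and hg38. The methods dropped probes that map to several genomic regions and 1 dim si-A2 array at 48 h; the array was left out here, but probes were not remapped.

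From the processed intensities, log2 values were quantile-normalized within a time point after setting aside flagged spots and averaging repeated spots. A probe was kept if it exceeded the mean plus 3 SD of 308 negative control spots on at least 3 arrays. Each gene was read from its brightest probe, and 57.4% of probes at 24 h and 53.4% at 48 h had a RefSeq gene name. limma 3.58.1 in R 4.3.3 fitted the 3 siRNA groups with slide as a term, with Benjamini-Hochberg adjustment over all genes, and calls needed an adjusted p under 0.01 together with a log2 fold change of 0.5 or more in size. Python 3.11.15 was used for tables and figures. The number of arrays limits the precision.

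The members, gene lists and tests were chosen with earlier results of these data known. By the rule for naming genes, the text gives the 6 members with every probe, the other family genes above background, the genes of the other lists called in at least 1 comparison (at most 4 a list), and the 5 genes nearest to STMN1 and to the median of the members. Same-numbered samples deviated together at 48 h (correlation 0.165 to 0.309 over 10 pairs) but not at 24 h (-0.143 to 0.146 over 12 pairs). The sample titles give these numbers. The fit did not pair by them at either time point, and blocking by number was run as an alternative at both. Differently numbered samples of the same 48 h slide correlated nearly as much (0.0805 to 0.252, median 0.166 against 0.193), so pairing by number is hardly separate from the slide, which the fit already holds. The fit was tested on simulated data: of genes changed by 1 on the log2 scale at 24 h 41.2% were recovered, and of those changed by 2 at 48 h 98%. Alternatives covered background correction, scaling, filters, probe choice, blocking, the dim array and leaving out each array.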

Additional observations from a re-analysis of the deposited data

Results flagged for a closer look

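On its brightest probe, the effect of si-A1 on STMN1 changed from 24 h to 48 h by -1.75 on the log2 scale (SE 0.20, adjusted p = 0.00122 by limma). With the mean over its probes the change was -0.96 (adjusted p = 0.205 by limma) and was not called. STMN1 was selected with its changes at both time points known, so the flag is not independent evidence. Time and array design cannot be told apart in it. Among 30 groups of 4 arrays tested for a sample far from the others, 0 had one.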

How the results depend on the processing

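Of the 6 genes, the number called after si-A1 at 24 h went from 1 to 0 with scaling to the 75th percentile, the interquartile range filter, the replicate block, a fit of just the groups compared or a log2 fold change of 1 or more in size, and was 0 to 0 with single arrays left out. After si-A2 at 24 h it went from 1 to 0 under the same settings, and was 0 to 1 with single arrays left out. With the mean over probes it stayed at 1 at both time points after si-A2, but the gene called was TUBB (-1.07 at 24 h and -0.94 at 48 h) and not STMN1 (-0.0054, adjusted p = 0.996, and -0.69, adjusted p = 0.0195). The 24 h STMN1 mean takes in dimmer probes on which scramble replicate 3 read low. After si-A1 at 48 h the number called was 3, with 1848 calls over all genes. It rose to 5 with normexp (1565 over all genes), with no background correction (2114) or with the well-above-background filter (2662). The number was 0 with the dim array kept (24 over all genes), and 2 to 3 with single arrays left out. After si-A2 at 48 h it was 1, became 2 with normexp or no background correction, 0 with the interquartile range filter, the replicate block, only the groups compared or the dim array kept, and 0 to 0 with single arrays left out. The change of the si-A1 effect went from 1 call to 0 with the mean over probes or the dim array kept, and was 1 to 1 with single arrays left out.

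With the replicate number as a block, a pairing that at 48 h is hardly separate from the slide, STMN1 after si-A2 at 48 h gave -1.96 (adjusted p = 0.0218) and TUBB4B after si-A1 an adjusted p of 0.0236, so both calls were lost. Same-numbered 24 h samples also share a slide but did not deviate together, and the block took both 24 h counts from 1 to 0. Over all genes it took the 24 h calls from 361 to 243 after si-A1 and from 322 to 221 after si-A2.

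Signs turned only for values that were not called. With scaling to the 75th percentile these were TUBG1 (0.026) and TUBB probe A_33_P3312258 (0.059) after si-A1 at 24 h. In the authors' table TUBA1C gave -0.011 for si-A2 against si-A1 at 24 h. With the mean over probes STMN1 gave 0.087 and TUBG1 0.091 after si-A1 at 24 h, and si-A2 against si-A1 gave -0.079 for TUBA1C at 24 h and -0.053 for STMN1 at 48 h. With the dim array kept, si-A2 against si-A1 at 48 h gave -0.70 for STMN1, -0.85 for TUBA1B, -0.76 for TUBA1C, -0.36 for TUBB4B, -0.22 for TUBG1 and -1.22 for TUBG1 probe A_33_P3363898, and the TUBB change for si-A2 was -0.57. With single arrays left out, TUBB probe A_33_P3312258 after si-A1 at 24 h ran from -0.12 to 0.073, TUBG1 from -0.21 to 0.20 after si-A1 and from -0.36 to 0.046 after si-A2 at 24 h, and si-A2 against si-A1 from -0.047 to 0.083 for TUBA1C at 24 h, from -0.070 to 0.21 for STMN1 at 48 h and from -0.010 to 0.27 for TUBG1 at 48 h. When the dim array was kept, the brightest-probe rule read STMN1 at 48 h from another probe. The STMN1 scramble arrays then read 7.37 to 7.81, against 8.73 to 9.36 with that array left out. The STMN1 value after si-A1 was then -0.16, so its -0.70 is not a value of the probe that fell. The cause of the other moves was not tested.

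Over all genes, calls after si-A2 at 48 h went from 102 to 461 with normexp, 587 with no background correction and 0 with the interquartile range filter, the block, only the groups compared or the dim array kept. After si-A1 at 24 h, 361 genes became 220 with the interquartile range filter and 122 with a fit of just the groups compared, and after si-A2 322 became 212 and 149. Scaling to the 75th percentile gave 336 after si-A1 and 327 after si-A2 at 24 h, and a log2 fold change of 1 or more in size gave 314 and 293. For the change of the si-A1 effect, 43 became 40 with the mean over probes and 0 with the dim array kept. After si-A1 at 48 h, 1848 became 24 with the dim array kept. Alternatives for TUBB3, the other lists and the second probes were added after seeing the data.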
